A study of Mus musculus with 3 samples.

Results

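The SOCS and JAK-STAT3 signalling genes Il6st, Jak1, Stat3, Socs1, Socs2 and Socs3, 6 of the 41605 gene rows in each library, were followed through the endothelial cells of mouse skeletal muscle. They were chosen by symbol, after earlier results of these libraries were known, so their levels are given as a description and with no test. Each library held CD31+, CD45-, dye-excluding cells sorted from the gastrocnemius of C57BL/6N mice and captured by droplet 3' sequencing, which counts unique molecular identifiers (UMIs, each marking 1 captured RNA molecule). The untreated library came from mice given no treatment. The sedentary library came from mice housed singly in cages without a wheel, and the running library from mice housed singly with a wheel for 14 days of voluntary running. There was 1 library in each group. The age, sex and number of mice behind a library and the housing of the untreated mice are not given in the sources used here, so a difference between libraries cannot be told apart from a difference between animals, preparations or captures.

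The pathway starts when a cytokine of the interleukin-6 family brings its own receptor chain together with gp130, the signalling subunit that Il6st encodes. JAK1, a tyrosine kinase bound to the inner part of the receptor, then phosphorylates gp130 and the transcription factor STAT3, which enters the nucleus and turns on target genes. Socs3 is one of those targets, and its product binds gp130 and blocks the kinase, which makes a feedback loop. Socs1 is best known as a target of interferon signalling and also blocks JAK kinases, whereas Socs2 is a target of STAT5 that restrains growth hormone receptor signalling. Working skeletal muscle is a known source of interleukin-6, and endothelial cells answer the cytokine mainly through the soluble form of its receptor.

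The Socs3 promoter is shown because Socs3 had the largest ratio of the 6 genes between running and sedentary capillary-like cells. The stretch lies on the minus strand at chr11:117969452-117969616 of GRCm38.p6 and was read from the RefSeq promoter windows, which span 250 bases before to 50 bases after each RefSeq start. The capitals mark a match to the STAT site TTCNNNGAA, 154 to 146 bases before the RefSeq start of the gene and 326 bases before the start of the annotated coding transcript.
Socs3: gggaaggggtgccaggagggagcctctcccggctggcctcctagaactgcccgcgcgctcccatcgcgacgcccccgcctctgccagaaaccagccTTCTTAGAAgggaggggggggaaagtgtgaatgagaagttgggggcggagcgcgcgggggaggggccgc

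RefSeq windows were found for 5 of the 6 genes, that of Socs2 being the one not matched. A STAT site on either strand was present in 2726 of 32851 windows (8.30%), and among the 5 matched genes it was present in the Socs3 window. An AP-1 site, searched as TGACTCA or TGAGTCA, was present in 1709 windows (5.20%) and in none of the 5. A match is a description of letters and was not measured as bound. In the GENCODE M21 annotation of GRCm38, Il6st lies at chr13:112464070-112510086 on the plus strand. The other 5 genes lie on the minus strand, with Jak1 at chr4:101152367-101265282, Stat3 at chr11:100885098-100939540, Socs1 at chr16:10782240-10785536, Socs2 at chr10:95385362-95417180 and Socs3 at chr11:117966079-117970047. Stat3 shares 72 bases at its 3' end with Stat5a on the opposite strand. Jak1 overlaps Gm12785 (172 bases, same strand), Gm24468 (104 bases, opposite strand) and the end of Raver2 (4 bases, opposite strand). Whether the counting used strand is not given in the sources used here.

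The libraries held 4376 untreated, 4079 sedentary and 3260 running barcodes, with a median of 1582, 1122 and 1518 UMIs per barcode, and 75 of 11640 distinct barcodes occurred in more than 1 library. Cells were clustered with the 6 genes and the other genes of the pathway kept out. Clusters were then named from vessel markers, which gave capillary-like cells (2156 untreated, 2892 sedentary and 2232 running), artery-like cells (1472, 771 and 564) and vein-like cells (543, 198 and 201). Capillary-like cells came from different clusters in the libraries: cluster 3 held 57.1% of them in the untreated library, cluster 2 held 38.8% in the sedentary library, and cluster 1 held 46.0% in the running library. Cluster 2 was shallow, with a median of 680 UMIs per cell. Vein markers summed to 4683, 4247 and 4334 CPM (UMIs per 1000000 UMIs of the class) in untreated, sedentary and running vein-like cells against 345 to 413 CPM in capillary-like cells. Of the 8 macrophage markers, Adgre1, C1qa, C1qb and C1qc were at 0 in the capillary-like, artery-like and vein-like cells. In the order untreated, sedentary, running, the whole macrophage list summed to 3.55, 4.65 and 11.4 CPM in capillary-like cells, to 6.29, 8.38 and 41.5 CPM in artery-like cells and to 13.8, 5.64 and 5.93 CPM in vein-like cells, and its part in the results was not tested. In capillary-like cells red cell transcripts summed to 156 CPM untreated, 1040 CPM sedentary and 718 CPM running, and their part in the results below was not tested. Levels below are CPM of the UMIs summed over a class, with 95% Poisson intervals that cover counting error only. Each gene is compared with itself across classes and libraries, and no level is compared between genes.

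Il6st was the member that separated the vessel classes most. In vein-like cells it stood at 1456 CPM (interval 1394 to 1519) in the untreated library, 946 CPM (866 to 1033) in the sedentary library and 901 CPM (831 to 975) in the running library. In capillary-like cells it stood at 187 CPM (173 to 202), 139 CPM (127 to 152) and 108 CPM (97.7 to 120) in the same order. The lowest vein-like level was therefore above the highest capillary-like level, and the log2 ratio of vein-like to capillary-like cells was 2.96 untreated, 2.76 sedentary and 3.05 running. Artery-like cells held 164, 171 and 163 CPM of Il6st, a narrow range that fell inside that of capillary-like cells over the 3 libraries. Within libraries the log2 ratio of artery-like to capillary-like cells was -0.19 (-0.37 to -0.01) untreated, 0.30 (0.06 to 0.53) sedentary and 0.59 (0.33 to 0.84) running. After each cell was thinned to 1000 UMIs, 70.2% of untreated, 53.8% of sedentary and 54.3% of running vein-like cells had an Il6st UMI, against 14.1%, 11.6% and 9.23% of capillary-like cells. Without thinning, the vein-like shares were 88.8%, 81.8% and 89.6%. The high vein-like level was thus spread over most vein-like cells. Lymphatic-like cells (27, 10 and 43 cells) had 503 CPM (360 to 685), 96.5 CPM (11.7 to 349) and 338 CPM (246 to 454), with 2 UMIs behind the sedentary value.

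Jak1 and Stat3, the kinase and the transcription factor, were spread more evenly. Jak1 stood at 165, 142 and 146 CPM in capillary-like cells, at 109, 91.4 and 103 CPM in artery-like cells and at 179, 122 and 172 CPM in vein-like cells of the untreated, sedentary and running libraries. Artery-like cells had the lowest Jak1 level in each of the 3 libraries, with a log2 ratio to capillary-like cells of -0.60, -0.63 and -0.49, while the capillary-like and vein-like ranges overlapped. Stat3 stood at 140, 155 and 127 CPM in capillary-like cells, at 142, 139 and 147 CPM in artery-like cells and at 179, 167 and 230 CPM in vein-like cells. The Stat3 ranges of capillary-like and artery-like cells overlapped, and that of vein-like cells lay above both.

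Among the inhibitors, Socs3 followed the order vein-like first. In vein-like cells it stood at 1039 CPM (988 to 1093) untreated, 809 CPM (734 to 889) sedentary and 933 CPM (862 to 1009) running. Capillary-like cells had 454 CPM (431 to 477), 386 CPM (365 to 407) and 600 CPM (574 to 627), and artery-like cells had 347 CPM (326 to 370), 379 CPM (346 to 413) and 479 CPM (441 to 519). The vein-like range lay above both others, which overlapped each other. The order holds for summed classes and not for every cluster. Capillary-like cluster 1 had 872 CPM sedentary and 957 CPM running, above the vein-like levels, and 703 CPM untreated, below it. The log2 ratio of vein-like to capillary-like cells was 1.20 untreated, 1.07 sedentary and 0.64 running.

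Socs2 was lower in capillary-like than in artery-like and vein-like cells. It stood at 166, 156 and 189 CPM in capillary-like cells, at 226, 288 and 288 CPM in artery-like cells and at 277, 273 and 324 CPM in vein-like cells of the untreated, sedentary and running libraries. The artery-like and vein-like ranges overlapped and both lay above the capillary-like range. The artery-like class is mixed. Its cluster 5, led by the capillary marker Btnl9, scored 0.85 on artery and 0.76 on capillary markers (mean log2 level relative to the mean of the clusters). Over the 3 libraries Socs2 was 275 CPM in cluster 5, 252 CPM in artery-like cluster 4 and 248 CPM in artery-like cluster 7. Socs1 showed no order of classes that held across libraries. Its capillary-like levels were 38.7, 67.7 and 96.5 CPM, its artery-like levels 44.4, 57.9 and 54.6 CPM and its vein-like levels 44.9, 86.6 and 51.9 CPM. Vein-like cells had the highest Socs1 level in the untreated and sedentary libraries, and capillary-like cells had the highest in the running library.

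**Figure D1:**
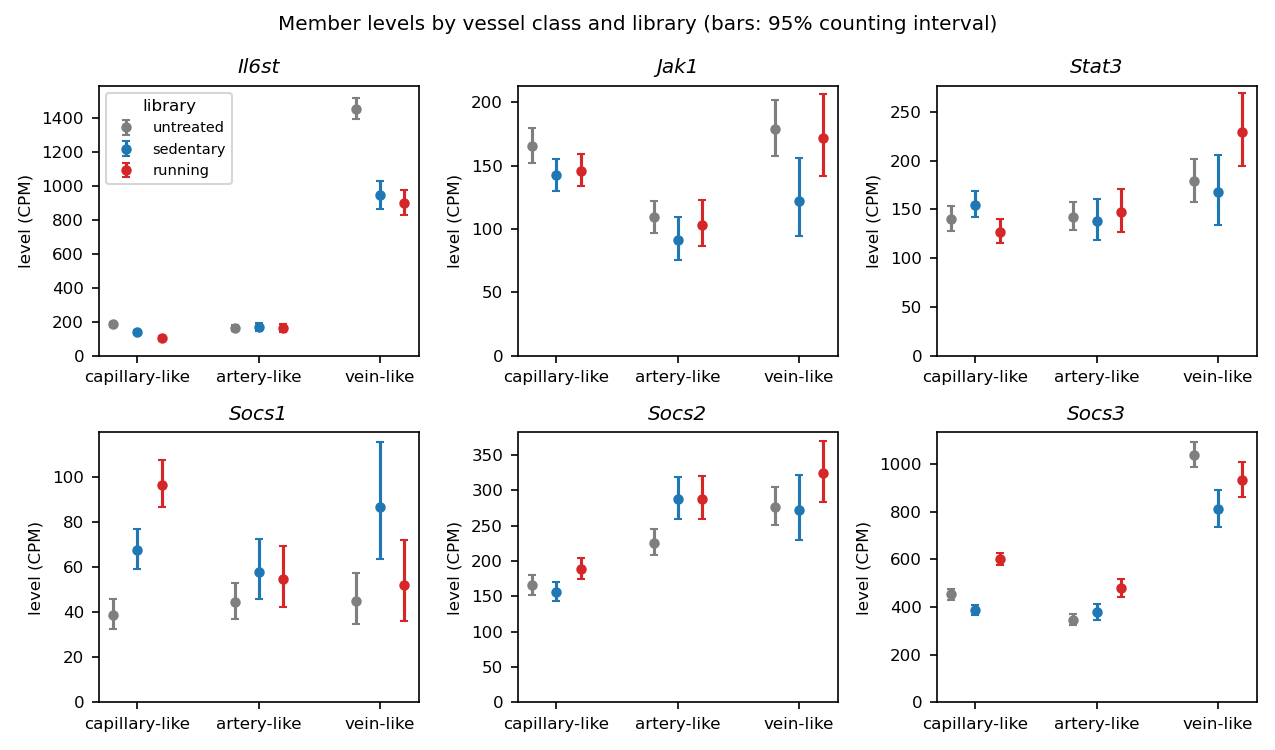
Level of each of the 6 genes in CPM (vertical axis, from 0) in capillary-like, artery-like and vein-like cells (horizontal axis) of the untreated, sedentary and running libraries. Points are summed UMIs per class and bars are 95% counting intervals. Il6st in vein-like cells lies between 901 and 1456 CPM, above its capillary-like and artery-like levels, and Socs1 in capillary-like cells runs from 38.7 CPM untreated to 96.5 CPM running.

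A gene was called different between classes when it differed by 1.5-fold or more in the same direction in all 3 libraries. Of the 6 genes, 3 were called higher in vein-like than in capillary-like cells (Il6st, Socs2 and Socs3) and 0 lower, where 5.25% of the 10628 genes with 50 or more UMIs were called higher and 6.87% lower. Il6st and Socs3 were also called higher in vein-like than in artery-like cells, where the background was 5.49%. Between artery-like and capillary-like cells 0 of the 6 were called, against a background of 8.83% in either direction. With cells thinned to 1000 UMIs only Il6st kept its vein-like call. Socs3 then had a log2 ratio of 0.54 in the running library and Socs2 one of 0.45, both under the 1.5-fold line. The Socs3 call was also lost without cluster 2 (0.48 in the running library). The Socs2 call was also lost with immediate-early genes kept out of clustering and with each library clustered alone (0.53 in the untreated library under both).

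Some other genes of the interleukin-6 branch were also higher in vein-like cells. Of 5 tested receptors that pair with gp130, 2 were called higher there (Lifr and Il6ra), where 5.25% of all genes were. Osmr, Il11ra1 and Il27ra were not. Lifr, the receptor chain for leukemia inhibitory factor, had 417, 288 and 298 CPM in vein-like cells against 134, 116 and 89.5 CPM in capillary-like cells of the untreated, sedentary and running libraries. Il6ra, the interleukin-6 receptor chain, rested on 34, 7 and 4 UMIs in vein-like cells and 13, 3 and 13 UMIs in capillary-like cells, and was singled out after its values were seen. Osmr, the oncostatin M receptor chain, was instead called higher in artery-like cells, with 189, 135 and 155 CPM there against 113, 88.3 and 81.1 CPM in capillary-like cells. The cytokine Il6 itself, also singled out after its values were seen, had 59, 22 and 51 UMIs in vein-like cells (40.7, 41.4 and 75.6 CPM) and 3, 9 and 25 UMIs in the capillary-like cells.

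Downstream of the receptors, the kinase Jak2 was called higher in vein-like cells (53.8, 43.3 and 40.0 CPM against 23.9, 27.3 and 24.5 CPM in capillary-like cells). Of 19 tested genes known to be induced through STAT3, 6 were called higher in vein-like cells (Myc, Icam1, Lrg1, Hif1a, Tnfrsf1a and Lbp) and 0 lower, where 5.25% and 6.87% of all genes were. Such calls were not particular to this list. Of 24 tested immediate-early genes 6 were called higher and 2 lower, and of 14 other JAK-coupled receptors 3 higher and 1 lower. Among 9 other inhibitors 0 were called higher and 1 lower. Icam1 and Lrg1 are also on the vein marker list and count in the vein marker sums given above. As pathway genes, they were left out of the clustering and of the naming of clusters. Hif1a, the oxygen-sensing transcription factor, had 213, 192 and 196 CPM in vein-like and 72.7, 52.8 and 59.8 CPM in capillary-like cells. Lbp, which carries bacterial lipopolysaccharide, had 113, 79.0 and 75.6 CPM in vein-like cells and 1.18, 0.87 and 2.62 CPM in capillary-like cells, where it rested on 4, 3 and 9 UMIs. Smooth muscle markers summed to 452, 681 and 750 CPM in vein-like cells and to 25.4, 55.7 and 51.9 CPM in capillary-like cells, and their part in these differences was not tested.

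Likeness of pattern was measured for each gene by Pearson's r of log2(CPM + 1) over the 9 combinations of vessel class and library, which share libraries and depth. The genes most like Il6st among 9413 were Amigo2 (r = 0.99), Lifr (0.98) and Golm1 (0.98). Those most like Socs3 were Sh3bgrl (0.98), Tmem98 (0.98) and Tifa (0.97), and those most like Stat3 were Tslp (0.96), Farp1 (0.92) and Tpm1 (0.92). Jak1 was closest to Tmem38b (0.97), Trim35 (0.97) and Rock2 (0.96), Socs2 to Eef1g (0.97), Cd63 (0.94) and Eif3i (0.93), and Socs1 to Elp2 (0.93), Ptpa (0.91) and Setd6 (0.91). Within the 6 genes r was highest between Il6st and Socs3 (0.87) and between Il6st and Stat3 (0.81), and Socs1 had an r between -0.19 and 0.13 with each of the others.

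The comparison that the design names is running against sedentary. Running capillary-like cells held more Socs3, with 2058 UMIs (600 CPM) against 1328 UMIs (386 CPM) in the sedentary library, a log2 ratio of 0.64 (interval 0.54 to 0.74). Socs1 had 331 against 233 UMIs, a log2 ratio of 0.51 (0.27 to 0.76), and Socs2 had 649 against 538 UMIs, a log2 ratio of 0.28 (0.11 to 0.44). All 3 inhibitors were therefore higher in running capillary-like cells beyond counting error. The receptor subunit Il6st was lower, at 372 against 480 UMIs and a log2 ratio of -0.36 (-0.56 to -0.16). Stat3 was lower as well, at 437 against 533 UMIs and -0.28 (-0.47 to -0.10), while the Jak1 interval of -0.14 to 0.22 spanned 0. The median over all 9311 genes was -0.02.

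At the 1.5-fold line 1 of the 6 genes, Socs3, was called higher in running capillary-like cells and 0 were called lower, against 3.4% of all genes higher and 3.31% lower. The Socs3 call sat close to the line, at 1.56-fold. It fell under the line with cells of 500 or more genes (log2 ratio 0.54), with cells thinned to 1000 UMIs (0.45) and without the shallow cluster 2 (0.48), and reached 0.89 when each library was clustered alone.

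Artery-like and vein-like cells were compared in the same way. Artery-like Socs3 had a log2 ratio of running to sedentary of 0.34 (0.16 to 0.51), and the intervals of the other 5 genes spanned 0 there, so that 0 of 6 were called against a background of 7.44%. In vein-like cells Socs3 had 0.21 (0.03 to 0.39), Jak1 0.49 (0.04 to 0.95) and Stat3 0.45 (0.07 to 0.85), while Socs1 was called lower at -0.73 (-1.42 to -0.07), against 4.81% of genes called lower. That Socs1 value rests on 35 running and 46 sedentary UMIs, and its call was lost with thinned cells (-0.19), with pathway genes used to cluster (-0.52) and with immediate-early genes kept out of clustering (-0.48). Artery-like Socs3 stood at -0.07 when each library was clustered alone.

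Untreated against sedentary compares the libraries whose labels name no running, although the housing of the untreated mice is not given. Capillary-like Socs1 was lower in it than in the sedentary library, at 131 against 233 UMIs and a log2 ratio of -0.80 (-1.13 to -0.49), and was the 1 member called, where 14.1% of 9193 genes were called lower and 7.14% higher. Its size exceeded the running to sedentary value of 0.51. Capillary-like Socs3 had a ratio of untreated to sedentary of 0.23 (0.13 to 0.34) and Il6st one of 0.42 (0.25 to 0.60). The Socs3 value moved to -0.05 with thinned cells and -0.01 without cluster 2. In vein-like cells Il6st was called higher in the untreated library at 0.62 (0.48 to 0.76), where 14.3% of genes were, and Socs1 lower at -0.95 (-1.51 to -0.37), where 13.5% were. The Il6st call was lost with each library clustered alone (0.45) and the Socs1 call with thinned cells (-0.37).

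Running against untreated shares the running library with the first comparison and the untreated library with the second. Socs1 in capillary-like cells was called higher at a log2 ratio of 1.31 (1.02 to 1.62), or 2.49-fold, where 13% of 9204 genes were, and Il6st was called lower at -0.79 (-0.97 to -0.60), where 7.45% were. Socs3 had 0.40 (0.31 to 0.50) in capillary-like and 0.46 (0.31 to 0.61) in artery-like cells but -0.15 (-0.29 to -0.02) in vein-like cells. Vein-like Il6st was called lower at -0.69 (-0.82 to -0.56), where 12.6% of genes were. The Il6st calls were lost when each library was clustered alone, at -0.28 in capillary-like and -0.26 in vein-like cells, and the capillary-like one also with immediate-early genes kept out of clustering (-0.56) and below the median immediate-early share described below (-0.53). The median of all capillary-like genes was 0.10 here and -0.02 after scaling by trimmed mean of M-values (TMM), and for untreated to sedentary it was -0.12 and 0.00. With that scaling capillary-like Socs3 of running to untreated was 0.28.

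**Figure D2:**
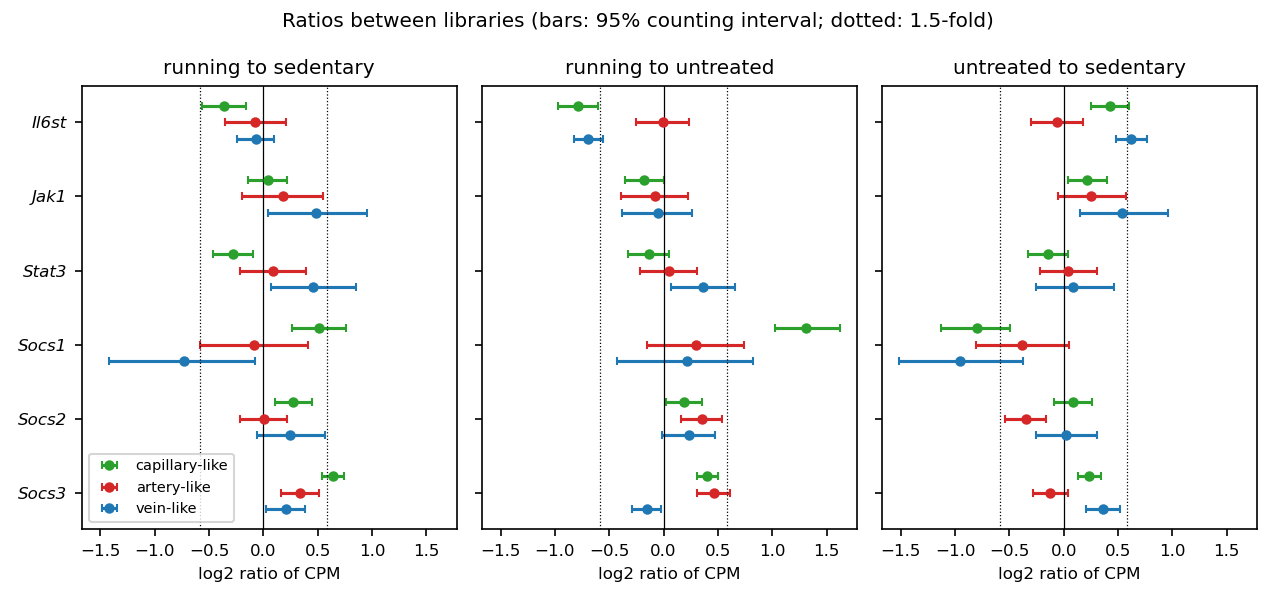
Log2 ratio of CPM (horizontal axis) of each gene for running to sedentary, running to untreated and untreated to sedentary in capillary-like, artery-like and vein-like cells. Points are ratios of summed UMIs, bars are 95% counting intervals and dotted lines mark 1.5-fold. Capillary-like Socs3 of running to sedentary lies at 0.64 and capillary-like Socs1 of running to untreated at 1.31.

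The Socs3 UMIs of capillary-like cells were then followed to single cells. In the running library 13.0% of capillary-like cells had 3 or more Socs3 UMIs and held 62.9% of them. The corresponding shares were 7.37% and 42.8% in the untreated library and 6.12% and 52.3% in the sedentary library. After thinning to 1000 UMIs, 30.6% of untreated (517 of 1691), 28.7% of sedentary (395 of 1376) and 37.3% of running (558 of 1495) capillary-like cells had a Socs3 UMI. Running exceeded sedentary by 8.62 percentage points (interval 5.13 to 12.1), and by 15.9 points without thinning, where the shares were 22.9% and 38.8%. Cells under 1000 UMIs were left out by the thinning.

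For Socs1 the thinned shares of capillary-like cells were 2.96% untreated, 7.63% sedentary and 9.30% running. The difference of running and sedentary was 1.67 percentage points, with an interval of -0.42 to 3.75 that spans 0. For comparison with cells of another type, the muscle fibre cluster has a median of 680 UMIs and 51 sedentary and 30 running barcodes. Of these, 0 and 0 had a Socs1 UMI, 2 and 3 a Socs3 UMI and 2 and 1 a Socs2 UMI. Il6st was found in 6 and 4 of them, Jak1 in 6 and 5 and Stat3 in 5 and 3. The muscle fibre level of Il6st was 185 CPM (68.0 to 403) sedentary and 255 CPM (103 to 526) running, not below the capillary-like 139 and 108 CPM. The muscle fibre interval of Socs1 reached 114 CPM sedentary and 135 CPM running, above the capillary-like 67.7 and 96.5 CPM. That of Socs2 was 19.1 to 271 CPM sedentary and 0.92 to 203 CPM running, around the capillary-like 156 and 189 CPM. From the muscle fibre barcodes, capillary-like Il6st, Jak1, Stat3, Socs1 and Socs2 cannot be told apart from free RNA in the droplets. Whether muscle fibre barcodes express these genes themselves was not tested. The erythrocyte cluster, with 10 sedentary and 10 running barcodes, had 1 and 1 UMI of Il6st and of Stat3. Each of these 2 genes stood there at 25.8 CPM (0.65 to 144) sedentary and 22.4 CPM (0.57 to 125) running. Jak1 had 3 and 2 UMIs there, Socs1 3 and 0, Socs2 0 and 3 and Socs3 6 and 13.

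Socs3 and Socs1 UMIs met in the same cells. Among thinned capillary-like cells with a Socs1 UMI, the share that also had a Socs3 UMI was 46.0% untreated, 47.6% sedentary and 56.8% running, against 30.1%, 27.1% and 35.3% of the rest. Cells with a Socs2 UMI had a Socs3 UMI in 30.9%, 38.8% and 44.9% of cases, against 30.5%, 27.0% and 35.8% of the rest, so the untreated library showed no such gap. With an Il6st UMI the shares with Socs3 were 31.5%, 36.5% and 42.8%, against 30.4%, 27.7% and 36.8%.

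The levels of Socs3 and Socs1 by cluster were set beside immediate-early transcripts such as Fos, Junb and Egr1, which rise within minutes of a stimulus and also during tissue digestion. The list of 26 such genes holds none of the 6. Over the 3 libraries, capillary-like cluster 1 had 914 CPM of Socs3 and 136 CPM of Socs1 with 30025 CPM of immediate-early transcripts, and cluster 3 had 623 and 55.7 CPM with 27628 CPM. Capillary-like cluster 0, led by Gpihbp1 and Car4, had 76.7 and 18.4 CPM with 6243 CPM, and the shallow cluster 2 had 73.2 and 24.9 CPM with 6144 CPM. Socs1 did not follow that order in every cluster: interferon-marked cluster 8 had 93.1 CPM with 17330 CPM of immediate-early transcripts, and lymphatic-like cluster 13 had 13.0 CPM with 23396 CPM. Il6st did not follow it either, with 113 CPM in cluster 1, 186 in cluster 3, 125 in cluster 0 and 175 in cluster 2. Among artery-like cells, cluster 4 had 670 CPM of Socs3 with 29764 CPM and cluster 5 had 93.8 CPM with 6834 CPM. An endothelial cluster that no vessel markers named, led by Penk and Itm2a, had the highest Socs3 level of the 15 clusters at 1260 CPM. Pericyte-like cells, which wrap capillaries, numbered only 47, 12 and 39 in the untreated, sedentary and running libraries. Their Socs3 level was 511 CPM (401 to 641), 1251 CPM (861 to 1757) and 1059 CPM (891 to 1249) in that order, with 33 UMIs behind the sedentary value.

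**Figure D3:**
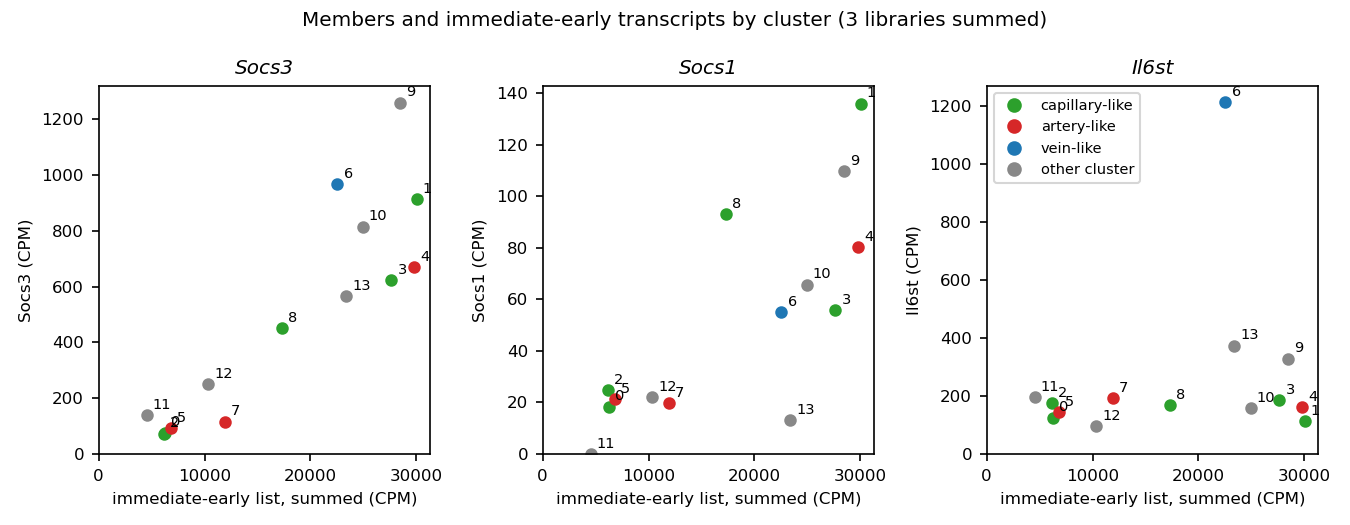
Socs3, Socs1 and Il6st (vertical axes, CPM over the 3 libraries summed) against the summed immediate-early list (horizontal axis, CPM) in each cluster except the erythrocyte cluster, labelled by cluster number and coloured by class. The clusters with 22555 CPM or more of immediate-early transcripts have 565 CPM or more of Socs3, whereas Il6st is highest in vein-like cluster 6 at 1213 CPM.

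The immediate-early total itself differed between libraries. In capillary-like cells it was 21468 CPM untreated, 14654 CPM sedentary and 21183 CPM running. Of 24 tested genes on the list, 9 were called higher and 0 lower in running than in sedentary capillary-like cells, where 3.4% and 3.31% of all genes were, with a median log2 ratio of 0.49 against -0.02 over all genes. Capillary-like cells were therefore split at their median share of immediate-early UMIs, 1.17%, a cut with 4308 of 7280 cells within 1 percentage point of it. The cells above it made up 64.8% of untreated, 34.4% of sedentary and 55.9% of running capillary-like cells.

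Above the median, Socs3 stood at 619 CPM (587 to 651) untreated, 828 CPM (782 to 876) sedentary and 936 CPM (895 to 979) running. Below it, Socs3 stood at 64.5 CPM (49.8 to 82.2), 57.2 CPM (47.1 to 68.7) and 71.3 CPM (57.7 to 87.1). The difference between the strata was thus far larger than that between libraries within either. The log2 ratio of running to sedentary was 0.18 (0.07 to 0.28) above and 0.32 (-0.09 to 0.72) below the median, both smaller than the 0.64 of all capillary-like cells. Against the sedentary library, untreated Socs3 was lower above the median, at -0.42 (-0.53 to -0.31), although it was higher over all capillary-like cells. Within cluster 1 alone, running Socs3 was 957 CPM and sedentary Socs3 872 CPM, a log2 ratio of 0.13 (0.02 to 0.25). The other capillary-like clusters differed in this ratio. It was 0.67 (0.22 to 1.11) in cluster 8 and 0.53 (-0.13 to 1.16) in cluster 2. In cluster 0 it was 0.15 (-0.33 to 0.62), and in cluster 3 it was -0.0008 (-0.42 to 0.42).

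Socs1 above the median stood at 51.3 CPM untreated, 120 CPM sedentary and 147 CPM running, and below it at 8.93, 28.8 and 16.5 CPM. Its log2 ratio of running to sedentary was 0.30 (0.03 to 0.57) above the median and -0.79 (-1.59 to -0.07) below it, where it rests on 22 running and 57 sedentary UMIs. Untreated Socs1 was the lowest of the 3 libraries in both strata. Socs2 had a ratio of running to sedentary of 0.30 (0.07 to 0.53) above and 0.07 (-0.20 to 0.33) below. Il6st kept nearly the same ratio in both strata, -0.33 (-0.61 to -0.04) above and -0.36 (-0.65 to -0.07) below, close to the -0.36 of all capillary-like cells. What share of each difference between libraries belongs to the immediate-early transcripts was not tested.

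**Figure D4:**
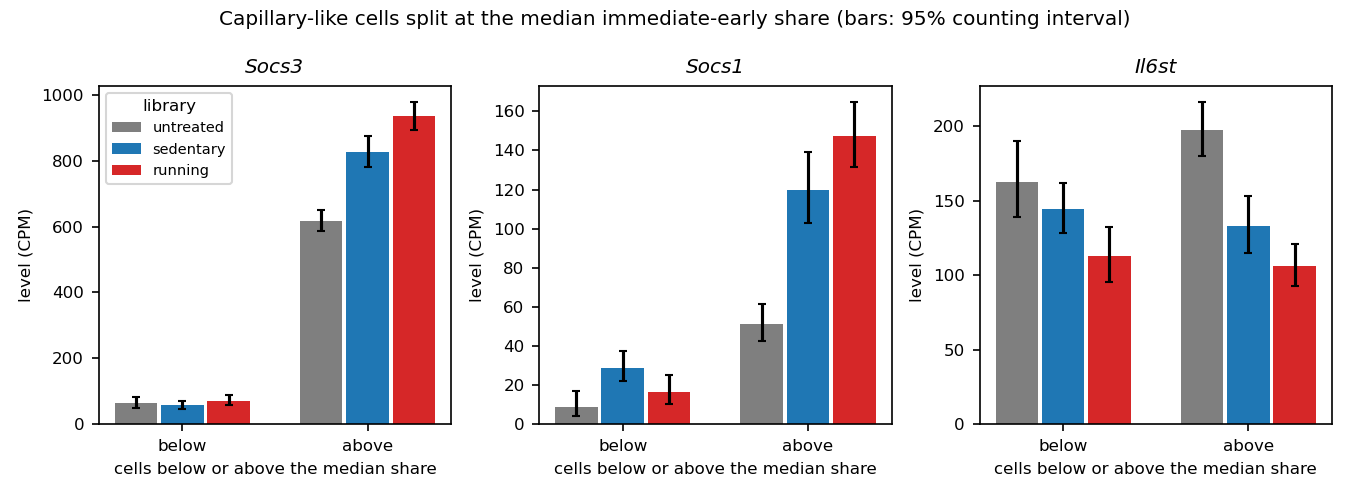
Level of Socs3, Socs1 and Il6st in CPM (vertical axes, from 0) in capillary-like cells below and above the median share of immediate-early UMIs, by library. Bars are summed UMIs and lines are 95% counting intervals. Socs3 is at 57.2 to 71.3 CPM below the median and at 619 to 936 CPM above it, while Il6st lies between 106 and 197 CPM in both strata.

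Few of the other genes of the pathway passed the 1.5-fold line between running and sedentary capillary-like cells. None of the 9 interleukin-6 family ligands reached 50 UMIs in them, and Cntf, Il27 and Il31 had 0 UMIs. Of the gp130 partner receptors 3 were tested and 0 called, with Lifr at a log2 ratio of -0.38 (-0.60 to -0.16), next to the -0.36 of Il6st, and Il11ra1 at 0.45 (0.10 to 0.81). None was called among 13 other JAK-coupled receptors, 3 other JAK kinases, 4 other STAT factors, 5 other SOCS box genes, 9 other inhibitors and 6 genes known to be induced through STAT5. Cish, a STAT5 target that restrains cytokine receptors, had 0.46 (-0.01 to 0.93).

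Of 15 tested genes known to be induced through STAT3, 2 were called higher (Junb at 0.76 and Fos at 0.70) and 1 lower (Bcl2l1, an inhibitor of cell death, at -0.73), where 3.4% and 3.31% of all genes were, with a list median of 0.29 against -0.02 over all genes. Junb and Fos also belong to the immediate-early list. Below the 1.5-fold line stood Cebpd at 0.55, Gadd45g at 0.49 and Irf1 at 0.48. Against the untreated library, 5 of the same 15 genes were called higher in running cells and 0 lower, where 13% and 7.45% of all genes were: Lrg1 at 2.60, Irf1 at 1.28, Cebpb at 1.04, Bcl3 at 0.97 and Icam1 at 0.68. Irf1, an interferon-induced transcription factor, and Socs1 thus both stood lowest in untreated capillary-like cells. Receptor Il4ra was likewise called higher in running than in untreated cells at 1.03, and Lifr lower at -0.59.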

How the data were processed

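Single-cell libraries of sorted muscle endothelial cells were measured in 3 groups with 1 library each. The deposited values are UMI counts per gene and barcode, which the authors made with Cell Ranger 2.0.2 on GRCm38.p5, per the submitters' processing notes. The annotation release is not given in the sources used here. The 6 genes and the pathway lists were chosen with earlier results of these data known.

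Barcodes with 300 or more genes and at most 10% mitochondrial UMIs were kept (4325, 4015 and 3212 in the untreated, sedentary and running libraries). A doublet caller marked 2 of them and so did not work as a filter. Cells were clustered with scanpy 1.11.5 and Leiden at resolution 1 from 2000 variable genes, 30 components and 15 neighbours, with 96 pathway genes kept out. Clusters were named from fixed markers, so class shares may differ from the study's own. UMIs were summed per class and library and scaled to UMIs per 1000000 (CPM). Ratios on the log2 scale had 0.5 added to each count, with exact 95% intervals for a ratio of counts. Shares have Clopper-Pearson intervals. Intervals cover counting error only, and no test was run.

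Genes named besides the 6 were those of the pathway lists with 50 or more UMIs, those past 1.5-fold first, and the 3 most alike in pattern to each. Class totals ranged from 531464 to 3444188 UMIs. Alternatives covered clustering, filters, depth, scaling (TMM factors from edgeR 4.0.16) and the fold. The ratio procedure was tested on simulated counts with Poisson noise only, without variation between cells, animals or captures. Of 200 genes changed 2-fold, 98 raised and 95 lowered ones passed the 1.5-fold line. So did 193 unchanged genes, with 9282 genes tested in all. The intervals covered the set ratio in 95.9% of genes.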

Additional observations from a re-analysis of the deposited data

Results flagged for a closer look

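Some ratios between libraries pointed in opposite directions in different vessel classes. The differences between classes were not tested, since each group has 1 library. Stat3 of running to sedentary was -0.28 in capillary-like and 0.45 in vein-like cells on the log2 scale. Socs1 of running to sedentary was 0.51 in capillary-like and -0.73 in vein-like cells, the latter from 35 and 46 UMIs. Socs3 of running to untreated was 0.40 in capillary-like and 0.46 in artery-like cells but -0.15 in vein-like cells. Immediate-early transcripts of running and untreated cells stood at 21183 and 21468 CPM in capillary-like, 18677 and 21578 CPM in artery-like and 18609 and 26826 CPM in vein-like cells, and their part in these differences was not tested.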

How the results depend on the processing

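No paired analysis was possible because each group has 1 library. Of the ratios of single genes under the alternatives, 533 of 594 between libraries and 286 of 324 between classes stayed within their counting interval. No ratio called in the reported setting changed sign. Capillary-like Socs1 of running to sedentary, not called in that setting, did change sign and passed 1.5-fold in both directions (-0.79 to 0.70). The number of the 6 genes past 1.5-fold in running against sedentary capillary-like cells, 1 as reported, was 0 with 500 genes per cell, 0 with cells thinned to 1000 UMIs, 0 without the shallow cluster 2, 0 over all endothelial-like cells as 1 class, 0 above the median immediate-early share, 2 with each library clustered alone, 3 at the lower fold of 0.32 on the log2 scale and 0 at 2-fold. Below the median immediate-early share the 1 gene past 1.5-fold was Socs1, lower at -0.79, while Socs3 stood at 0.32. Leaving out cluster 2, like counting cluster 5 as capillary-like, was chosen after seeing the data. For running against untreated, 2 as reported, it was 1 with immediate-early genes kept out of clustering, 1 at 2-fold, 0 below the median share, 3 above it and 3 at the lower fold. For untreated against sedentary, 1 as reported, it was 2 at the lower fold, 0 at 2-fold and 2 over all endothelial-like cells. Between artery-like and capillary-like cells it was 2 at the lower fold in place of 0, and between vein-like and capillary-like cells 1 with thinned cells, 1 at 2-fold and 2 without cluster 2, with immediate-early genes kept out of clustering or with each library clustered alone, in place of 3. The cause was not tested, except where fewer cells or another fold sets it by construction. Socs3 of running to sedentary in capillary-like cells ranged from 0.18 to 0.89 and Il6st from -0.36 to -0.06 over 14 settings, each keeping its direction, whereas Socs1 ranged from -0.79 to 0.70. Depth limits Socs1 most, which has 35 to 76 UMIs in the sedentary and running artery-like and vein-like cells.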
